A study of Mus musculus with 2 samples.

Results

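The 84 genes described here encode the proteins of the cytosolic ribosome and were chosen by symbol alone, out of 26100 genes listed for both libraries. They comprise the numbered Rpl and Rps genes with Rpsa, Rplp0, Rplp1 and Rplp2, while S6 kinases and pseudogenes were left out. Of these, 52 belong to the large and 32 to the small subunit, and they are scattered over 19 chromosomes in the GENCODE M21 annotation. Of the 84, 82 passed a level of 10 CPM (molecule counts of a gene scaled to a sum of 1e6 per group) as the mean of the groups compared, and these 82 were the same in every comparison because all lay above 10 CPM in all groups. Rpl3l and Rpl10l, the remaining genes, did not pass and are described by their counts.

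The study sequenced single cells of mouse embryonic fibroblasts (MEF) and of induced myogenic progenitor cells (iMPC) made from such fibroblasts, with 1 library each on the 10x 3′ platform, in which every captured molecule carries a unique molecular identifier (UMI). Both carry the genotype Tg:Pax7-nGFP/C57BL6;DBA2. The iMPC were generated with MyoD plus F/R/C and kept in F/R/C medium, and the treatment label of the other sample names MEF media, although its protocol text repeats the iMPC treatment. With 1 library per condition there is no replicate and hence no test, and the 95% intervals given are exact and cover counting error only.

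After filtering, 6043 MEF cells and 9349 iMPC cells were kept, with a median of 18929 and 20846 UMIs, and 16 barcodes occurred in both libraries. Within iMPC, 4 classes were set by UMIs of single genes. The Pax7 class, with at least 1 Pax7 and no Myog UMI, held 2180 cells. The Myog class, with at least 5 Myog and at most 1 Ckm UMI, held 1724 cells. The Ckm class and the Dcn class, each with at least 5 UMIs of its gene, held 1037 and 553 cells. A further 4001 cells met no rule, and 110 cells were in both the Pax7 and the Dcn class. The summed level of 7 myocyte markers was 96 CPM in MEF, 747 in the Pax7 class, 11483 in the Myog class, 39215 in the Ckm class and 3500 in the Dcn class. The summed level of 7 fibroblast markers was 5645 CPM in MEF and 4575 in the Dcn class, against 123 to 1160 in the other classes. The 7 progenitor markers summed to 255 CPM in MEF and 634 CPM in the Pax7 class. The Myog, Ckm and Dcn classes had sums of 345, 266 and 337.5 CPM. Of these markers, Myf5 and Fgfr4 were at 0 in MEF, and Chodl was at or near 0 in every group. Vcam1 went the other way, at 190.5 CPM in MEF and 42.6 in the Pax7 class. Itga7 was at 80.1 CPM in the Pax7 class and highest in the Ckm class, at 142.6 CPM. The 4 smooth muscle markers summed to 9883 CPM in MEF and 716 CPM in iMPC. Endothelial and erythroid marker lists summed to below 1 CPM in all 6 groups. The part of these differing marker levels in the results below was not tested.

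Cytosolic ribosomal proteins assemble with ribosomal RNA into a large subunit, which joins amino acids, and a small subunit, which decodes the messenger. Their messengers typically begin with a pyrimidine tract at the 5′ end, through which growth signals acting via mTORC1 and the protein Larp1 control their translation. Most of these proteins are made in nearly equal numbers, but several genes have a paralog with restricted expression. In skeletal muscle and heart, Rpl3l is known to take the place of Rpl3, and growth of muscle fibres depends on ribosome production.

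The pyrimidine tract could be looked for at the RefSeq start sites of 64 members, on the build GRCm38.p6. A run of at least 8 bases that are all C or T, on the transcribed strand and overlapping the 10 bases on either side of the start, was present at 30 of 76 member starts (39.5%) and at 13.7% of 32851 starts of all genes. A shorter or shifted tract does not meet this rule. The windows below run from 20 bases before to 10 bases after the start, with the run in capitals, and show genes on which the results turn.
Rps6, chr4:86857358-86857387, minus strand: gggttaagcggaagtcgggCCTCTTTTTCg
Rplp2, chr7:141447631-141447660, plus strand: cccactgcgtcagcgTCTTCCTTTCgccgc
Rpl7a, chr2:26910787-26910816, plus strand: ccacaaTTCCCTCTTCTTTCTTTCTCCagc
Rps25, chr9:44407694-44407723, plus strand: TCCTTTTTTTCCgacatcttagcgaggctg
Rps27, chr3:90213639-90213668, minus strand: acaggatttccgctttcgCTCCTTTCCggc
Rps27l, chr9:66946066-66946095, plus strand: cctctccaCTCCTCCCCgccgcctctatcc
Rpl22l1, chr3:28805488-28805517, plus strand: cgtgcgtgcggcgcaagcccgTTCTCTTCC
Rpl5, chr5:107900508-107900537, plus strand: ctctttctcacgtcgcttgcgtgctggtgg
Rplp0, chr5:115559447-115559476, plus strand: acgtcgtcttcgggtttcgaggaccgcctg
The first 7 of these windows hold a run that meets the rule and those of Rpl5 and Rplp0 do not. Placement decides some cases: the Rpl5 window opens with a run of C and T that ends before the 10-base limit, and the run of Rps25 lies mostly outside that limit. Rps27l, whose level was lower in iMPC than in MEF, holds a run just as its partner Rps27 does, whose level was higher.

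Ribosomal protein genes took 21.9% of all UMIs in MEF (21.88 to 21.89) and 30.6% in iMPC (30.64 to 30.65), a share 1.40 times as high in iMPC. Within iMPC the share was 33.2% in the Pax7 class, 31.6% in the Myog class, 27.9% in the Dcn class and 24.7% in the Ckm class. The order of the shares was thus Pax7, Myog, Dcn, Ckm and then MEF, and each neighbouring pair differed by more than its counting intervals. Among cells of 15000 to 30000 UMIs the first 2 changed places, with 33.6% in the Myog class and 33.2% in the Pax7 class. Single cells spread widely around these values. The middle 80% of cells ran from 17.1 to 28.0% in MEF, from 28.0 to 40.5% in the Pax7 class and from 17.5 to 31.9% in the Ckm class, so the Ckm class overlapped both. Mitochondrially encoded genes took 5.95% of UMIs in MEF, 4.56% in iMPC, 3.58% in the Pax7 class and 6.65% in the Ckm class, and a total without them put the iMPC share at 1.38 times that of MEF.

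**Figure D1:**
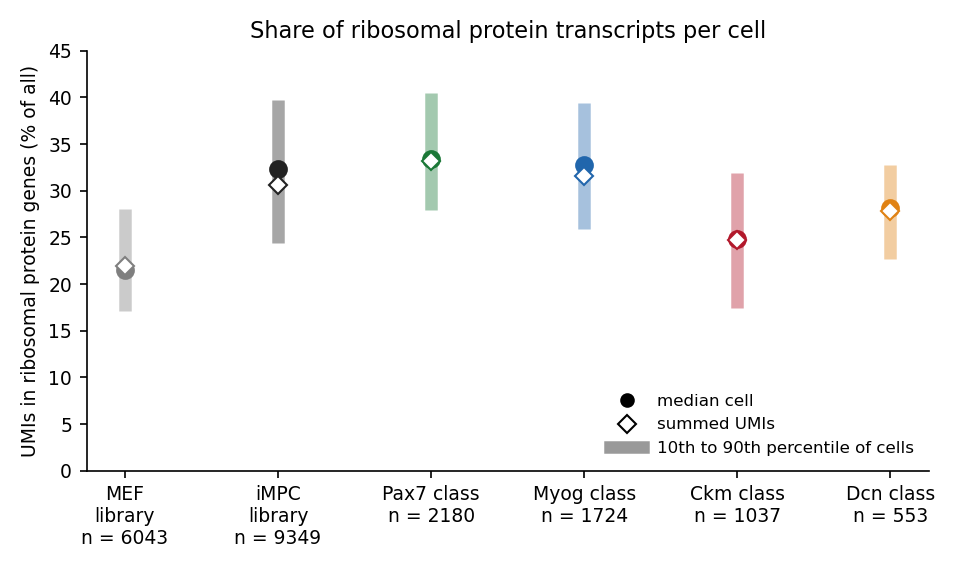
Share of UMIs in the 84 ribosomal protein genes (percent of all UMIs, y axis) in the 2 libraries and the 4 iMPC classes (x axis, n is cells). Dots are the median cell, diamonds the summed UMIs and bars the 10th to 90th percentile of cells. The MEF and Ckm class medians, 21.5% and 24.8%, lie below the Pax7 class median of 33.4%.

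In iMPC against MEF, 62 of 82 members were at least 25% higher and 1 was at least 20% lower, the limits that count as higher and lower throughout, against 30.0% of 7809 genes higher and 42.7% lower at the same level. The median log2 ratio of CPM was 0.53 over the members and -0.16 over all genes tested, and 81 members lay above the all-gene median. At a limit of 1.5-fold, 30 members were higher (21.2% of all genes) in iMPC than in MEF. Both subunits had positive medians, of 0.52 for the large and 0.55 for the small subunit. The large subunit carried 1.34 times the UMIs of the small one in MEF and 1.28 times in iMPC. Levels are counts near the 3′ end and are not compared between genes.

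Among large-subunit genes, Rpl5, which carries the 5S ribosomal RNA with Rpl11, was at 1152 CPM in MEF and 2609 in iMPC. Within iMPC, Rpl5 was at 2784 CPM in the Pax7 class, 2797 in the Myog class, 2039 in the Ckm class and 2356 in the Dcn class. Its log2 ratio of 1.18 was the highest among members of at least 50 CPM, and its level in MEF lay below that in each iMPC class. Its partner Rpl11 was at 2943 CPM in MEF and 4027 in iMPC, a log2 ratio of 0.45. Rpl31, which lies near the exit of the peptide tunnel, was at 732 CPM in MEF and 1561 in iMPC, a log2 ratio of 1.09. Rpl19 was at 4820 CPM in MEF and 4964 in iMPC, which is 0.04 on the log2 scale.

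The stalk of the large subunit recruits the elongation factors and consists of Rplp0 with copies of Rplp1 and Rplp2. Rplp0 was at 5039 CPM in both libraries. Rplp1 was at 5537 CPM in MEF and 7039 in iMPC, a log2 ratio of 0.35. Rplp2 was at 2035 CPM in MEF and 3601 in iMPC, a log2 ratio of 0.82. The 3 stalk genes thus had unequal ratios between the libraries. In the Ckm class against the Pax7 class their ratios were -0.49, -0.42 and -0.39, a narrower spread.

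Among small-subunit genes, Rps25 was at 1194 CPM in MEF and 2595 in iMPC, a log2 ratio of 1.12. Rps23, which lies at the decoding centre, was at 2347 CPM in MEF and 4807 in iMPC, a log2 ratio of 1.03. Both were more than 2-fold higher in iMPC. Rps6, the ribosomal target of S6 kinase, was at 1343 CPM in MEF, 2629 in iMPC, 2900 in the Pax7 class, 2800 in the Myog class, 1998 in the Ckm class and 2185 in the Dcn class. Its iMPC over MEF log2 ratio was 0.97. Rps4x, an X-linked gene, was at 3454 CPM in MEF and 4303 in iMPC, a log2 ratio of 0.32. Rps20 showed nearly equal levels, at 6101 CPM in MEF and 6049 in iMPC. Rpsa, which also serves as a laminin receptor, was at 4310 CPM in MEF and 4681 in iMPC, a log2 ratio of 0.12. Rps27a, made as a fusion with ubiquitin, was at 3930 CPM in MEF and 5890 in iMPC, a log2 ratio of 0.58.

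**Figure D2:**
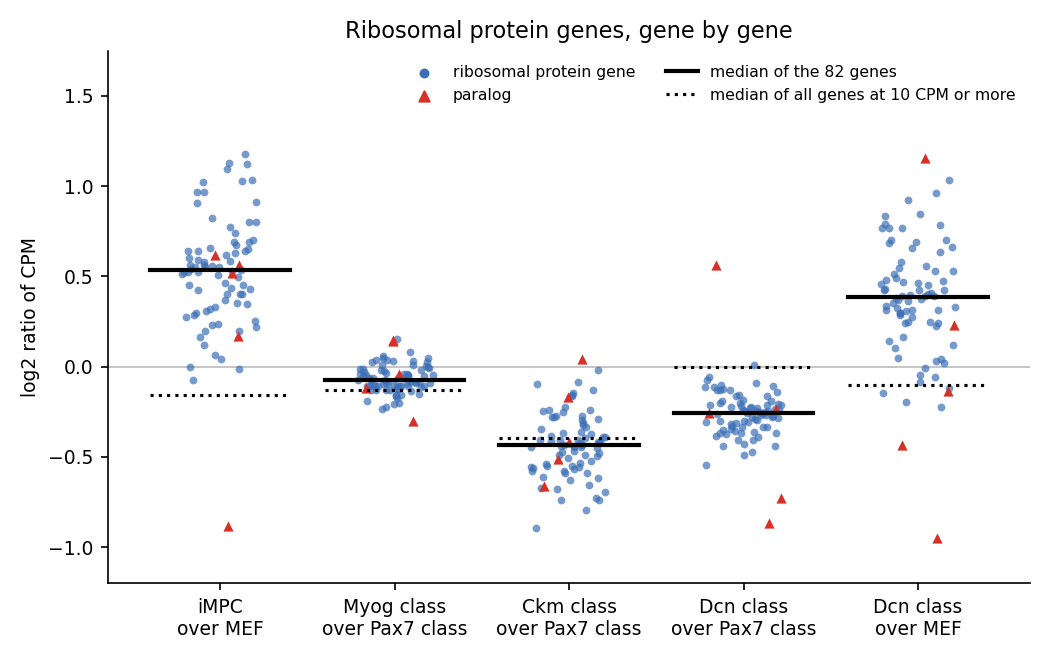
Log2 ratio of CPM (y axis) of each of the 82 ribosomal protein genes in the 5 comparisons (x axis); dots are genes, triangles paralogs, solid bars the median of these genes and dotted bars the median of all genes at 10 CPM or more. In iMPC over MEF the genes centre on 0.53 and all genes on -0.16, whereas in the Ckm class over the Pax7 class the medians are -0.43 and -0.39, and that of genes at 50 CPM or more, not drawn, is -0.16.

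The Pax7 class enters 3 comparisons and MEF enters 2, so their values are given side by side and are not independent. In the Myog class against the Pax7 class no member passed the limit in either direction, against 18.5% of all genes higher and 35.0% lower. The member median was -0.08, beside -0.13 for all genes at 10 CPM or more and -0.04 for those at 50 CPM or more, so the sign relative to other genes depended on the level filter. Without cells holding Mki67 or Top2a both medians were -0.14, 5 members were lower and the member share was 0.909 times that of the Pax7 class. The share of all genes lower among these cells was not counted. With all cells of both classes, the member share in the Myog class was 0.951 times that in the Pax7 class. It was 1.01 times when only cells of 15000 to 30000 UMIs were compared. With all cells, the 82 members lay within a narrow band from -0.30, for Rpl39l, to 0.15, for Rpl27. At 1.5-fold, too, no member passed, against 10.8% of all genes higher and 20.8% lower. Median cells held 6443.5 member UMIs in the Pax7 class and 7782.5 in the Myog class.

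In the Ckm class against the Pax7 class 61 of 82 members were at least 20% lower and none at least 25% higher, against 53.1% of all genes lower and 23.6% higher. The member median was -0.43 beside -0.39 for all genes at 10 CPM or more, but beside -0.16 for genes at 50 CPM or more, over which the member median was again -0.43. Setting the 10 CPM all-gene median to 0, which shifts every gene alike, leaves 5 members lower. The share of all genes lower after this shift was not counted. Without cells holding Mki67 or Top2a the medians were -0.53 and -0.33. How far the members lay below other genes thus depended on the level filter and the cells compared. The count of UMIs per cell ran the other way: median cells of the Ckm class held 9720 member UMIs, against 6443.5 in the Pax7 class, while UMIs of all other genes were 32560 and 12345. At least 5 Ckm UMIs are met more easily by deep cells. Among cells of 15000 to 30000 UMIs the share was 33.2% in the Pax7 class and 27.4% in the 209 cells of the Ckm class. There 29 members were lower, with a member median of -0.28 beside -0.35 for all genes, and the share of all genes lower was not counted.

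Rpl12, at the base of the stalk, was at 4732 CPM in the Pax7 class, 4313 in the Myog class and 2546 in the Ckm class, a log2 ratio of -0.89 in the Ckm class. Rps19, a gene mutated in Diamond-Blackfan anaemia, was at 5486, 4669 and 3157 CPM in these classes, a log2 ratio of -0.80. Rpl7a was at 2207, 2015 and 1322 CPM, a log2 ratio of -0.74. Rps12 was at 6541, 5986 and 3918 CPM, also a log2 ratio of -0.74. These 4 genes were lowest in the Ckm class of the 3 classes. At the other end, Rpl27 was at 2735 CPM in the Pax7 class and 2698 in the Ckm class, and Rpl38, which is known for selective translation of Hox messengers, was at 3616 and 3402 CPM.

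Cells were also ordered by their number of Ckm UMIs, which follows both differentiation and depth. The share was 32.8% in 6764 iMPC cells with no Ckm UMI, 30.2% in 1548 cells with 1 to 4, 25.9% in 704 cells with 5 to 19 and 23.0% in 327 cells with 20 to 99. Median member UMIs per cell were 6459.5, 7607, 9304 and 11041 in these steps, and those of all other genes 12542.5, 16261.5, 28859 and 41262. The share was thus lower at each step while the number of ribosomal protein UMIs per cell was higher. Only 6 cells held 100 or more Ckm UMIs, with a share of 16.1%. Cells with a Mki67 or Top2a UMI, genes of dividing cells, had shares of 32.7% in the Pax7 class and 26.0% in the Ckm class, and cells without either had 34.6% and 24.2%.

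**Figure D3:**
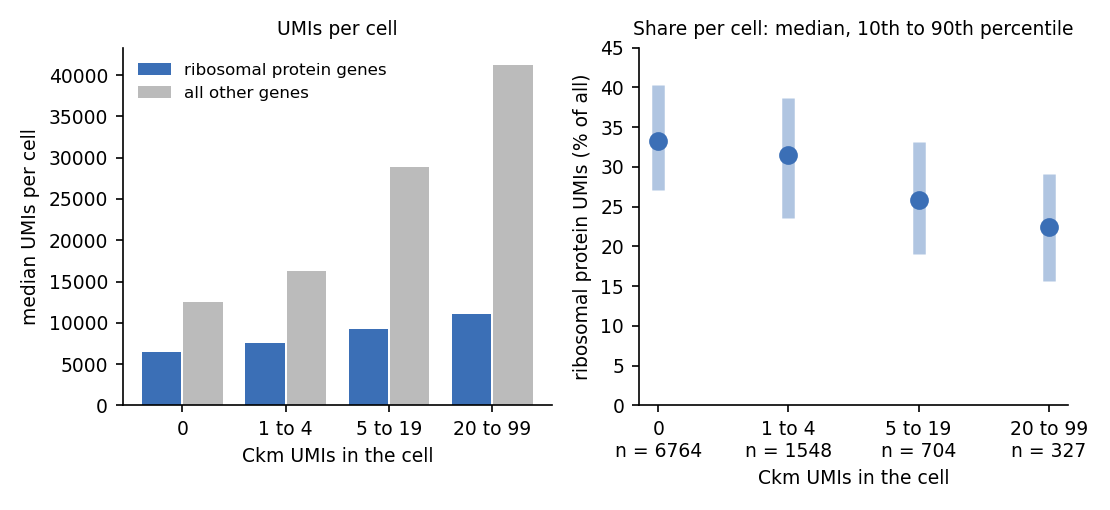
Left, median UMIs per cell (y axis) in ribosomal protein genes and in all other genes, for iMPC cells with 0, 1 to 4, 5 to 19 and 20 to 99 Ckm UMIs (x axis). Right, share of ribosomal protein UMIs per cell (percent), with dots for the median and bars for the 10th to 90th percentile. Member UMIs go from 6459.5 to 11041 per cell while the median share goes from 33.2% to 22.4%.

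In the Dcn class against the Pax7 class 24 members were lower and 1 higher past these limits, against 27.6% of all genes lower and 29.6% higher. At 1.5-fold 2 members were lower, against 15.1% of all genes. The member median was -0.26 and the all-gene median 0.00, and the share was 0.840 times that of the Pax7 class. Against MEF, the Dcn class had 49 members higher and 2 lower, against 28.0% and 37.0% of all genes, with a member median of 0.39 beside -0.10 for all genes. The share in the Dcn class was 1.27 times that in MEF, and 1.34 times among cells of 15000 to 30000 UMIs. The summed fibroblast markers, 4575 CPM in the Dcn class and 5645 in MEF, include Dcn itself, at 1162 and 268 CPM, and differ in direction: Col3a1 was at 2174 and 711 CPM, Col1a1 at 509 and 2289. Smooth muscle markers were at 678 CPM in the Dcn class and 9883 in MEF, and myocyte markers at 3500 and 96 CPM. The 2 members lower in the Dcn class than in MEF were Rps27l and Rpl22l1.

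Several members have a paralog, a second gene for a related form of the same protein. Rps27l, a known target of p53, shares 76.1% of aligned coding bases with Rps27. Rps27l was at 1462 CPM in MEF, 793 in iMPC, 904 in the Pax7 class, 833 in the Myog class, 571 in the Ckm class and 756 in the Dcn class. Rps27 was at 1601 CPM in MEF, 3017 in iMPC, 3365 in the Pax7 class, 2985 in the Myog class, 2295 in the Ckm class and 3116 in the Dcn class. The pair differed in opposite directions between the libraries, with log2 ratios in iMPC over MEF of -0.88 for Rps27l and 0.91 for Rps27. Within iMPC both were lower in the Ckm class than in the Pax7 class, by like log2 ratios of -0.66 and -0.55. No 31-base stretch in the last 300 bases is shared by the transcripts of this pair.

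Rpl22l1 was at 1180 CPM in MEF, 1325 in iMPC, 1449 in the Pax7 class, 1409 in the Myog class, 1085 in the Ckm class and 875 in the Dcn class. Rpl22, its partner, was at 1600 CPM in MEF, 2114 in iMPC, 2387 in the Pax7 class, 2140 in the Myog class, 1513 in the Ckm class and 2095 in the Dcn class. Against MEF, the Dcn class thus had a lower Rpl22l1, at -0.43, and a higher Rpl22, at 0.39. Rpl39l, known mainly from testis, was at 41.7 CPM in MEF, 61.6 in iMPC, 63.0 in the Pax7 class, 51.1 in the Myog class, 56.1 in the Ckm class and 93.0 in the Dcn class. It was the 1 member higher in the Dcn class than in the Pax7 class, at a log2 ratio of 0.56. Rpl39, its partner, was at 5576 CPM in the Pax7 class and 5097 in the Dcn class, a log2 ratio of -0.13. Of the 31-base stretches in the last 300 bases of Rpl39l, 2.96% also occur in Rpl39 transcripts. The part of Rpl39 reads in the Rpl39l level was not tested. After thinning each cell to 5000 UMIs, Rpl39l was found in 26.6% of Dcn class cells (22.9 to 30.5) and 19.1% of Pax7 class cells (17.5 to 20.8), against 45.9% and 29.4% before. Rpl7l1 was at 61.2 CPM in MEF, 94.1 in iMPC, 101 in the Pax7 class, 112 in the Myog class, 71.0 in the Ckm class and 55.6 in the Dcn class. Rpl36al was at 191 CPM in the Pax7 class and 196 in the Ckm class, the 1 of the 82 members with a log2 ratio above 0 there, at 0.04 with an interval of -0.002 to 0.08, while Rpl36a was at -0.44.

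**Figure D4:**
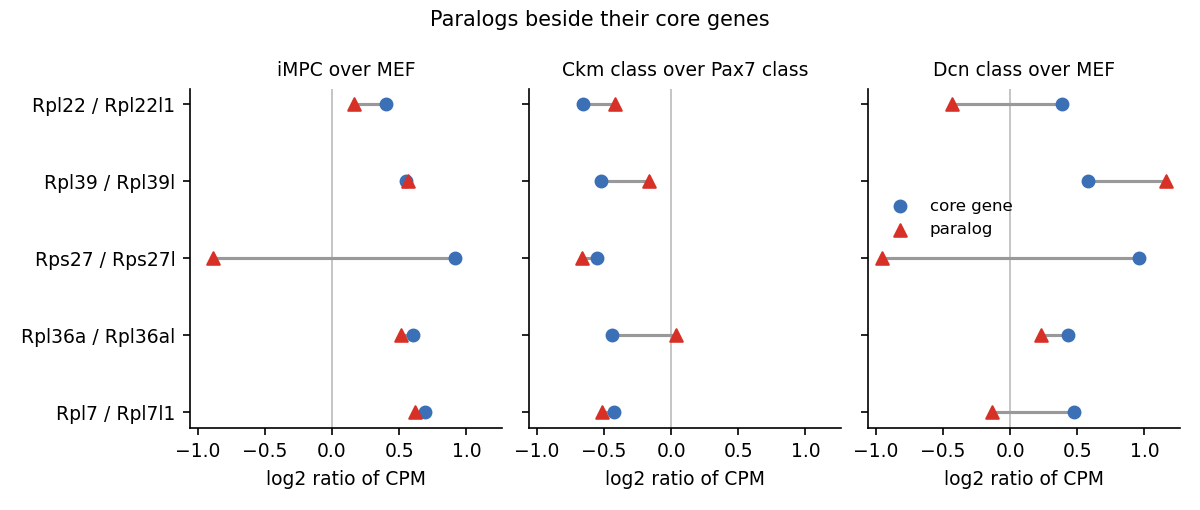
Log2 ratio of CPM (x axis) of 5 core genes (dots) and their paralogs (triangles), 1 pair per row, in 3 comparisons. Rps27l lies at -0.88 and Rps27 at 0.91 in iMPC over MEF, and Rpl22l1 at -0.43 and Rpl22 at 0.39 in the Dcn class over MEF.

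Rpl3l (ENSMUSG00000002500), the muscle paralog of Rpl3, gave no UMI in MEF and 106 in iMPC, or 0.456 CPM, which is at least 17.9-fold higher than the floor of 3 counts in the MEF library. The classes held 2 Rpl3l UMIs in Pax7, 13 in Myog, 68 in Ckm and 2 in Dcn, so that most of the UMIs fell in the Ckm class. Its level was 1.40 CPM in the Ckm class and 0.0454 in the Pax7 class, 4.94 on the log2 scale (exact interval 3.04 to 8.02). A UMI of Rpl3l was found in 63 of 1037 Ckm class cells, or 6.08% (4.70 to 7.71), and in 2 of 2180 Pax7 class cells, or 0.0917%, at median depths of 42148 and 18729.5 UMIs. In MEF it was found in 0 of 6043 cells (exact interval up to 0.0610%), at a median of 18929 UMIs. Thinned to 5000 UMIs per cell, 7 Ckm class cells kept one, or 0.675% (0.272 to 1.39), and 1 Pax7 class cell, or 0.0459% (0.00116 to 0.255). Barcodes of 200 to 600 UMIs, far below the limit for cells, had Rpl3l at 0.988 CPM from 21 UMIs, with an interval of 0.612 to 1.51 that includes the Ckm class level, whereas barcodes of 1 to 100 UMIs had 0.342 CPM from 3 UMIs, with an interval of 0.0706 to 1.001 that lies below it. The part of free RNA in the Ckm class level was not tested. Rpl3 was at 3301 CPM in the Pax7 class, 3061 in the Myog class and 2066 in the Ckm class, a log2 ratio of -0.68 for the last, so the pair differed in opposite directions. Rpl10l, known from testis, gave 1 UMI in iMPC and none in MEF.

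Rpl3l lies at chr17:24727820-24736143 on the plus strand in GENCODE M21. The 60 bases before its RefSeq start, chr17:24727766-24727825, are shown because this gene differed between the classes, with CAGCTG, a form of the E-box that MyoD and myogenin can bind, in capitals.
Rpl3l upstream: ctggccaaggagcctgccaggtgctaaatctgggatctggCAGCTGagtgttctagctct
CAGCTG, which reads the same on both strands, is found in the 250 bases before 13.0% of all starts and before 1 of 2 listed Rpl3l starts. The 60 bases also hold caggtg, another form of the E-box, which was neither marked nor counted.

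Members with and without a pyrimidine run at the start had nearly the same medians. In iMPC against MEF the median log2 ratio was 0.54 over 29 members with the run and 0.56 over 33 with a listed start and no run. In the Ckm class against the Pax7 class the medians were -0.45 and -0.44. Translation, which the tract controls, is not measured here, and members without the run can hold a shorter or shifted tract. The part of the tract was thus not tested.

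Other genes of ribosome production were read in the same way. Fau and Rack1, which are parts of the small subunit outside the symbol rule, were at 3417 and 1809 CPM in MEF and 5775 and 2826 in iMPC. Nucleolar factors that build ribosomes were higher in iMPC than in MEF for 22 of 31 genes and lower for 3, with a median of 0.49, against 30.0% of all genes higher and 42.7% lower. Ncl, the nucleolar protein nucleolin, was at 298 CPM in MEF and 588 in iMPC, and Nop58, of the box C/D particles, at 60.2 and 117 CPM. In the Ckm class against the Pax7 class 26 of 31 were lower and 1 higher, against 53.1% of all genes lower and 23.6% higher, with a median of -0.74 beside -0.43 for the ribosomal protein genes. Fbl, the methyltransferase of ribosomal RNA, was at 163 CPM in the Pax7 class and 54.6 in the Ckm class, a log2 ratio of -1.58, and Ncl was at 716 and 280 CPM. In the Dcn class against the Pax7 class 27 of 30 were lower, against 27.6% of all genes, with a median of -1.02. The nucleolar factors did not follow the ribosomal protein genes in every comparison. In the Dcn class against MEF 0 of 30 were higher and 13 lower, against 28.0% and 37.0% of all genes. There 49 of 82 ribosomal protein genes were higher. In the Myog class against the Pax7 class 10 of 31 were higher and 1 lower, against 18.5% and 35.0% of all genes. No ribosomal protein gene passed the limits there.

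Mitochondrial ribosomal protein genes, which form a separate ribosome, were higher in iMPC than in MEF for 33 of 77 genes and lower for 7, with a median of 0.20, beside the 30.0% and 42.7% of all genes. In the Ckm class against the Pax7 class 18 of 77 were higher and 10 lower, with a median of 0.08, beside 23.6% and 53.1% of all genes. Mrps23 was at 41.2 CPM in the Pax7 class and 95.4 in the Ckm class. In the Dcn class against the Pax7 class 51 of 76 were lower, beside 27.6% of all genes. Translation factors and other messengers of the pyrimidine-tract type gave 7 of 19 higher and 4 lower in iMPC against MEF, and 9 of 19 lower with none higher in the Ckm class against the Pax7 class. All genes gave 30.0% higher and 42.7% lower in the former, and 53.1% lower and 23.6% higher in the latter. The counts of 7 higher and 9 lower lie near these shares. The 4 lower in the former and none higher in the latter lie below them. In the latter, Npm1, a nucleolar chaperone, was at 2454 CPM in the Pax7 class and 940 in the Ckm class. Of 14 Myc and mTORC1 regulators, 3 were higher and 5 lower in iMPC against MEF, near the 30.0% and 42.7% of all genes. Mxd4, a repressor that opposes Myc, was at 104 CPM in MEF and 21.3 in iMPC, whereas Mxi1, another such repressor, was at 12.01 and 36.12 CPM, and Max, the partner of both, at 50.03 and 15.2 CPM. Myc itself was at 18.08 CPM in MEF and 28.32 in iMPC, a log2 ratio of 0.65. Eif4ebp1, which holds back cap-dependent translation, was at 280 and 441 CPM.

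**Figure D5:**
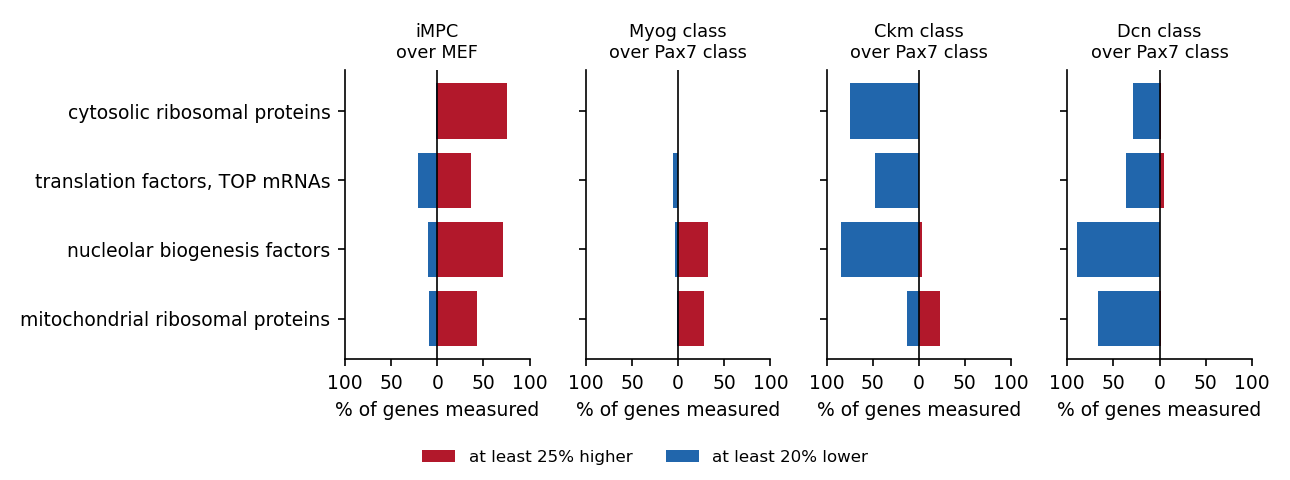
Percent of measured genes at least 25% higher (right, red) or at least 20% lower (left, blue) in 4 gene lists (rows) and 4 comparisons (panels). Cytosolic ribosomal proteins are mostly higher in iMPC over MEF (62 of 82, against 30.0% of all genes). They are mostly lower in the Ckm class over the Pax7 class (61 of 82, against 53.1% of all genes). Of 77 mitochondrial ribosomal proteins there, 18 are higher, near the 23.6% of all genes, and 10 are lower.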

How the data were processed

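Counts are UMIs per gene and cell, as the authors deposited them: a raw matrix of 6794880 barcodes for iMPC and a filtered one of 6113 barcodes for MEF. Per the submitters' processing notes, Cell Ranger 4.0 and Seurat 3.2.3 were used with the build GRCm38.p6; the roles and the annotation are not given in the sources used here. Cells of at most 20% mitochondrial UMIs were kept, in iMPC only with at least 8036 UMIs. Counts were summed per group over the genes listed in both matrices and divided by the sum, giving CPM. A gene was called higher at 25% or more and lower at 20% or more, the same fold, with a mean level of 10 CPM or more. Intervals are 95%: exact binomial (Clopper-Pearson) for shares and exact conditional for ratios. Doublets were kept in the values reported, since the rule states no filter. Named genes were the paralog pairs, stalk genes, Rpsa and Rps27a, and in each comparison the 5 highest and 5 lowest members of at least 50 CPM. In each other list they were the 3 with the largest absolute log2 ratio at the same 50 CPM, in iMPC against MEF and in the Ckm class against the Pax7 class. Rpl11, Rps6, Myc, Mxi1 and Max fall outside that selection and were added after their values were seen. Rps4l, the partner of Rps4x, was not analysed here. Some genes that this selection takes in are not reported here. The members and lists were chosen with earlier results of these data known. Reads of near-identical pseudogenes can make the level of a single member uncertain. The computation of the calls was checked on simulated data in which 200 genes were changed 2-fold, and 100% were called in each comparison. The simulation held counting error only, and a 2-fold change lies well past the limit. It therefore does not cover smaller changes, false calls or variation between cells or libraries. Python 3.11.15 was used with numpy 2.4.6, scipy 1.17.1, pandas 2.3.3 and scanpy 1.11.5, which holds Scrublet. Alternatives changed the scaling, the cell filters, doublets, overlapping classes, cycling cells, free RNA, the level and the fold.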

Additional observations from a re-analysis of the deposited data

Results flagged for a closer look

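iMPC barcodes outside the cells analysed also carried ribosomal protein UMIs. Those of 1 to 100 UMIs had a share of 27.57% and those of 200 to 600 UMIs a share of 27.55%, both between the Ckm class and the Pax7 class, with mitochondrially encoded genes at 14.7% and 16.8% of UMIs. Copies with symbols outside the rule were also counted in iMPC: Rps27rt at 60.53 CPM, Rpl9-ps6 at 35.81 CPM, Rpl10-ps3 at 27.75 CPM and Rpl36a-ps1 at 17.5 CPM, against 26.2, 20.6, 22.5 and 13.1 CPM in MEF.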

How the results depend on the processing

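No paired analysis was possible because each condition has 1 library. Intervals are so narrow at this depth that 41 of 48 alternative shares moved beyond them, with none on the other side of 1 except the Myog class in the depth window. The share ratios below are in the order iMPC over MEF, then Myog, Ckm and Dcn over the Pax7 class, then Dcn over MEF. Without mitochondrial genes they were 1.380, 0.960, 0.770, 0.842 and 1.245. As means over cells they were 1.445, 0.967, 0.735, 0.829 and 1.256. In cells of 15000 to 30000 UMIs they were 1.549, 1.012, 0.827, 0.851 and 1.336. At 10% mitochondrial UMIs they were 1.413, 0.954, 0.762, 0.841 and 1.276. With ribosomal genes outside the symbol rule added, the moved values were 1.406, 0.746, 0.843 and 1.283, for iMPC over MEF, Ckm and Dcn over Pax7 and Dcn over MEF. At 5000 UMIs in both libraries, iMPC over MEF, Myog and Ckm moved to 1.405, 0.952 and 0.746. Without the highest 5% of Scrublet scores, Myog, Ckm and Dcn over MEF moved to 0.952, 0.733 and 1.272; Scrublet's own threshold marked 377 iMPC and 2 MEF cells, too few in MEF for it to be relied on there. Without cells of several classes, Myog, Ckm, Dcn and Dcn over MEF were 0.943, 0.739, 0.839 and 1.283, and without Mki67 and Top2a 0.909, 0.701, 0.810 and 1.279. Free RNA, assumed at 10% of UMIs with the profile of barcodes of 200 to 600 UMIs, was subtracted from the iMPC groups and not from MEF. With it subtracted, iMPC over MEF, Ckm and Dcn over Pax7 were 1.415, 0.725 and 0.829. Counts moved in 8 of 63 alternatives. Ckm class members lower were 5 after median scaling over genes, 29 in the depth window and 15 at 1.5-fold, where 41.7% of all genes are lower. At 1.5-fold, 30 members were higher in iMPC (21.2% of all genes), 18 higher in Dcn over MEF (18.8%) and 2 lower in Dcn over Pax7 (15.1%). Myog class members lower were 5 without Mki67 and Top2a and 1 with free RNA subtracted. Member medians there were -0.14 and -0.08, beside all-gene medians of -0.14 and -0.14. In the Ckm class the depth window gave medians of -0.28 and -0.35. Except at 1.5-fold, the share of all genes lower was not counted in these alternatives. Of 786 alternatives for named genes, 289 stayed the same, 495 moved and 2 were labelled reversed. The latter were Rpl10 and Rplp2 in the Ckm class, each at 0.003 after the median scaling. This label was not given to every change of sign. In the Ckm class 30 of 82 members lay above the all-gene median, and so above 0 after this scaling, against 1 before it. Rpl27, at -0.02 before the scaling, and Rpl38, at -0.09, are among those not labelled reversed. The causes were not tested, beyond the scaling itself.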
